A study of Mus musculus with 8 samples.

Results

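This report describes 10 genes of cytokinesis, the last step of cell division, in heart muscle cells of newborn mice: Prc1, Kif23, Racgap1, Kif20a and Aurkb of the central spindle, Ect2, Anln, Cit and Iqgap3 of the contractile ring, and Cep55 of abscission. They were taken by symbol from the 48440 entries of a gene count table, and all 10 were found; the list was drawn up with earlier results of these data known. The table holds 8 RNA-seq libraries of purified cardiomyocytes from C57BL6/J pups at postnatal day 2. Each of 4 litters gave the heart of 1 male and of 1 female, so that there are 4 males and 4 females and each litter is a pair. The pups carried no stated transgene, mutation or treatment, and the labels name neither the parents nor the date of each preparation. All 10 members passed the filter on low counts, as did 13771 entries in all, with raw counts from 33 (Cep55, female of litter 3) to 1326 (Prc1, male of litter 1).

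In cytokinesis, antiparallel microtubules between the separated chromosomes are bundled into a central spindle, which places the signal for a ring of actin and myosin under the membrane. The ring pinches the cell to a narrow bridge, and the membrane machinery of abscission cuts that bridge. Mouse cardiomyocytes leave the cell cycle in the first days after birth through a round in which the nucleus divides and the cell does not, which leaves a cell with a pair of nuclei. Reduced Ect2 and misplaced anillin have been linked to this binucleation. Most cytokinesis genes are transcribed late in the cell cycle, under the MuvB complexes that bind the cell cycle genes homology region, whose letters are TTTGAA. The number of nuclei per cell was not analysed here, so the values below describe RNA only. In bulk RNA, fewer dividing cells and less RNA per dividing cell cannot be told apart.

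The promoters of the members are shown first, because late cell cycle genes are known to share a promoter element. Whether this element bears on the members' levels in these libraries was not tested. RefSeq promoters of build GRCm38.p6 (250 bases before to 50 bases after the annotated start, 300 bases in all) were matched by symbol for 8 of the 10 members; Aurkb and Kif20a were not matched. The letters TTTGAA, searched on both strands, stood in the promoters of 7 of these 8 genes (87.5%), against 20.2% of the 27025 genes with a promoter of that length. Each stretch below is written 5′ to 3′ on the strand that reads TTTGAA, which is in capitals.
Prc1: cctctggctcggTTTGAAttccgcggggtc
Kif23: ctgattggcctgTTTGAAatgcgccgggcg
Racgap1: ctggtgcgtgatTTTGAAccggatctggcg
Anln: ggccgttcaaaaTTTGAAtttcagcgcccc
Iqgap3: tctcctgccagtTTTGAAtctcccgccgct
Cep55: cgcttccgggagTTTGAAtcccgcggctgt
These windows lie at chr7:80294434-80294463 (plus strand shown), chr9:61946780-61946809 (minus), chr15:99651634-99651663 (minus), chr9:22389168-22389197 (plus), chr3:88082020-88082049 (minus) and chr19:38054996-38055025 (minus), in the order of the lines. The match lay on the gene's own strand in Prc1, Kif23 and Racgap1, with its first base at positions -5, 3 and 6 from the annotated start. Anln had it on both strands, and Iqgap3 and Cep55 on the opposite strand. A match of letters is a description and not a bound site.

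Ect2, the exchange factor that starts the assembly of the ring, is shown over the 130 bases before its start (chr3:27153879-27154008, minus strand shown), because it held TTTGAA together with CCAAT boxes, the letters that the factor NF-Y binds in many late cell cycle promoters; both motifs are in capitals.
Ect2: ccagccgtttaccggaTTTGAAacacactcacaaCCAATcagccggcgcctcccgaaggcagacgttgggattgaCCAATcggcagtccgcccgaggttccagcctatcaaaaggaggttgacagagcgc
In this stretch TTTGAA began at position -114, and CCAAT at positions -96 and -55, all on the gene's own strand. After the start, and so outside the stretch, this promoter held a further TTTGAA at position 40. It also held a further CCAAT at position 2, and both were on the gene's own strand. CCAAT, on either strand, stood in a promoter of 4 of the 8 matched members (Ect2, Racgap1, Kif23 and Prc1), against 41.1% of all genes. A related form, TTTAAA, was in 0 of the 8, against 14.9% of all genes. In the promoter of Cit none of these 3 motifs was found in this window. In lists of other genes, TTTGAA stood in a promoter of 10 of 14 other central spindle genes and of 19 of 24 mitotic genes. It stood in a promoter of 3 of 22 DNA replication genes and of 4 of 18 other abscission genes.

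Levels are given as CPM, the counts of a gene over the library total scaled by the trimmed mean of M values (TMM) and brought to a common size for all libraries. The libraries held 14226342 (female of litter 3) to 24910243 (male of litter 1) counts, of which 13.4% to 18.5% fell on mitochondrially encoded genes. Sex labels were checked with Xist, at 858.1 to 1288 CPM in females and 0.623 to 5.38 CPM in males, and with the Y-linked Ddx3y, at 57.0 to 73.4 CPM in males and at most 0.206 CPM in females. The 10 cardiomyocyte markers summed to 72209 to 96462 CPM and were lowest in both libraries of litter 3 (73392 and 72209). Litter 3 stood apart from the others: 28.3% of the 13771 genes differed between it and the mean of the other 3 litters, and its female library was the shallowest. Each litter gave 1 male and 1 female, so litter, day of preparation and any difference in exact age cannot be told apart. 

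Every member was highest in litter 1, next in litter 2, then in litter 4 and lowest in litter 3, with no overlap between the pairs of libraries. This held for 10 of 10 members and for 1.51% of all genes tested; the order itself was read from the members' values. Of all genes, 8.89% had both libraries of litter 1 above the other 6 libraries, and 16.4% had both libraries of litter 3 below them. Litter means of litter 1 were 3.22 times (Aurkb) to 6.23 times (Kif20a) those of litter 3. Summed over the 10 genes, the level was 282.9 and 235.6 CPM in the male and the female of litter 1, 170.5 and 161.5 in litter 2, 121.9 and 123.2 in litter 4, and 42.0 and 64.0 in litter 3.

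**Figure D1:**
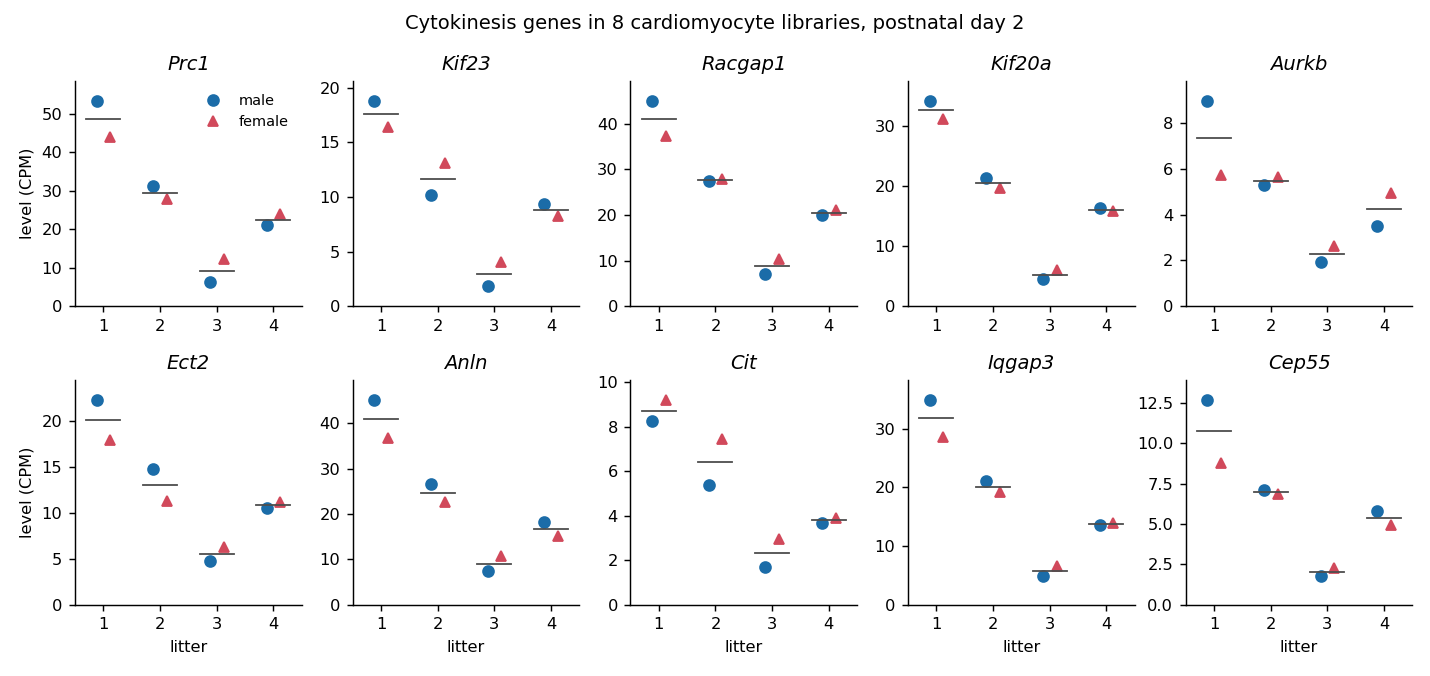
Level of each of the 10 cytokinesis genes in CPM (vertical axis, from 0) by litter (horizontal axis), with males as circles, females as triangles and the mean of each litter as a line. In every panel both libraries of litter 1 lie above and both libraries of litter 3 lie below the other 6.

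In the central spindle, Prc1, the protein that bundles antiparallel microtubules, was at 53.2 and 43.8 CPM in the male and the female of litter 1, 31.3 and 27.8 in litter 2, 21.04 and 23.9 in litter 4, and 6.16 and 12.2 in litter 3. It had the highest CPM of the members in both libraries of litter 1, and its male and female of litter 3 lay far apart for a pair of the same litter. Kif23, the kinesin motor of the centralspindlin complex, was at 18.7 and 16.4 CPM in litter 1, 10.2 and 13.1 in litter 2, 9.32 and 8.26 in litter 4, and 1.86 and 4.06 in litter 3. On the log2 scale it had the widest gap of all members within litter 3, where the female was above the male. Racgap1, the partner of Kif23 in centralspindlin that docks Ect2, was at 44.9 and 37.2 CPM in litter 1, 27.4 and 27.9 in litter 2, 19.9 and 21.1 in litter 4, and 7.02 and 10.4 in litter 3. Its level followed the mean of the other 9 members most closely, with a Pearson r of 0.999 over the 8 libraries, given as a description.

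Kif20a, the kinesin that carries the chromosomal passenger complex to the central spindle, was at 34.0 and 31.0 CPM in litter 1, 21.3 and 19.6 in litter 2, 16.3 and 15.8 in litter 4, and 4.46 and 5.98 in litter 3. The 2 libraries of each litter lay close together compared with the steps between litters. Aurkb, the kinase of the chromosomal passenger complex, was at 8.94 and 5.75 CPM in litter 1, 5.28 and 5.66 in litter 2, 3.52 and 4.95 in litter 4, and 1.95 and 2.61 in litter 3. The step between litters 1 and 2 was narrow in Aurkb, since the female of litter 1 was at 5.75 and the female of litter 2 at 5.66 CPM.

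At the contractile ring, Ect2 was at 22.3 and 17.96 CPM in the male and the female of litter 1, 14.8 and 11.3 in litter 2, 10.5 and 11.2 in litter 4, and 4.77 and 6.26 in litter 3. Litters 2 and 4 nearly met, at 11.3 and 11.2 CPM in their females. Anln encodes anillin, the scaffold that ties actin, myosin and septins together, and was at 45.1 and 36.7 CPM in litter 1, 26.7 and 22.7 in litter 2, 18.1 and 15.2 in litter 4, and 7.37 and 10.8 in litter 3. It stood with Prc1 and Racgap1 among the members with the highest CPM. Cit, the gene of citron kinase, which acts at the late ring and the midbody, was at 8.26 and 9.21 CPM in litter 1, 5.40 and 7.46 in litter 2, 3.68 and 3.90 in litter 4, and 1.69 and 2.96 in litter 3. Cit was the 1 member whose female was above the male in all 4 litters. Iqgap3, a scaffold of the IQGAP family, was at 34.9 and 28.6 CPM in litter 1, 21.1 and 19.1 in litter 2, 13.6 and 14.01 in litter 4, and 4.90 and 6.53 in litter 3. Its pairs were again closer than the steps between litters.

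For abscission, Cep55, which sits at the midbody and recruits Alix and the ESCRT machinery, was at 12.7 and 8.79 CPM in litter 1, 7.11 and 6.87 in litter 2, 5.80 and 4.95 in litter 4, and 1.78 and 2.27 in litter 3. It had the lowest raw count of any member, 33 in the female of litter 3, and 41 in the male of that litter. At this depth a step of a few counts in litter 3 moves the level visibly, and the values of Cep55, Aurkb, Cit and Kif23 there rest on 33 to 59 counts each.

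Levels of different genes were set side by side per kilobase of the union of annotated exons (GENCODE release 21 for mouse, GRCm38). On this scale the order of mean levels over the 8 libraries was Kif20a, Racgap1, Prc1, Anln, Ect2, Cep55, Aurkb, Iqgap3, Kif23 and Cit. The highest was 4.28 ± 2.42 CPM per kilobase (SD, n = 8 libraries), and the lowest 0.324 ± 0.166. These SDs mostly hold the steps between litters, and the ranges of every pair of neighbours in the order overlapped. Cit, at no more than 0.561 CPM per kilobase in any library, stayed below the lowest library of every other member except Iqgap3 (0.430) and Kif23 (0.236). With the longest transcript as the length, Prc1 was the highest, at 7.52 CPM per kilobase, and Kif20a was at 5.05, so the top of the order depends on the length taken.

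The genes lie apart in the genome: Prc1 at chr7:80294450-80316259, Kif23 at chr9:61915905-61946774, Racgap1 at chr15:99620496-99651656, Kif20a at chr18:34624613-34633277 and Aurkb at chr11:69045647-69051664. Ect2 lies at chr3:27097222-27153878, Anln at chr9:22332012-22389188, Cit at chr5:115845278-116008947, Iqgap3 at chr3:88081971-88121048 and Cep55 at chr19:38055011-38074423. For Kif20a, 29.3% of the exon bases overlap exons of Cdc23, a subunit of the anaphase-promoting complex on the opposite strand, and for Prc1 11.1% overlap Rccd1, also on the opposite strand. Whether reads were counted by strand is not given in the sources used here, so reads of these stretches may be split or shared. Cdc23 itself stayed between 62.9 and 70.3 CPM in the 8 libraries (litter test, adjusted p = 0.67). Rccd1 changed with litter (adjusted p = 0.0138), at 0.51 ± 0.11 (log2, SE) in litter 1 and -0.39 ± 0.12 in litter 3, less than Prc1 in both.

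Differences between litters were tested with edgeR's quasi-likelihood F test on the counts, with sex as a term, and p-values were adjusted by Benjamini-Hochberg over all 13771 genes. All 10 members differed between litters (background: 32.1% of genes). Adjusted p ranged from 3.66e-06 (Kif20a) to 0.00409 (Aurkb), and the range between the highest and the lowest litter from 1.72 (Aurkb) to 2.67 (Kif20a) on the log2 scale. Without litter 3, 9 of 10 members still differed (1899 of 13899 genes, against 4427 of 13771 with it), and Aurkb did not pass (adjusted p = 0.0964).

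Each litter was then set against the mean of the other 3. These 4 contrasts share libraries and are not independent of each other. Their standard errors and p-values, like the p-values of the litter test, rest on the spread between the 2 libraries of a litter. They do not measure how far litters vary in general. In litter 1, all 10 members rose (7.86% of all genes were called higher), by 0.98 ± 0.20 (log2, SE; Aurkb) to 1.45 ± 0.09 (Kif20a), with a median of 1.38 against 0.00 over all genes. Among the ring genes the rise was 1.13 ± 0.12 for Ect2, 1.41 ± 0.11 for Anln, 1.21 ± 0.15 for Cit and 1.45 ± 0.10 for Iqgap3. Without litter 3, 9 members were called higher in litter 1 (574 of 13899 genes), and the values of the 10 ran from 0.60 (Aurkb) to 1.01 (Anln), with a median of 0.82. Aurkb missed the threshold there (adjusted p = 0.0894). Its rise also rests on the male of litter 1, without which it was 0.47 (adjusted p = 0.334).

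In litter 3, all 10 members fell (14.8% of all genes were called lower), from -1.31 ± 0.25 (Aurkb) to -2.12 ± 0.23 (Kif23) on the log2 scale, with a median of -1.81 against 0.00 over all genes. Kif20a and Cep55 were at -2.11 ± 0.13 and -1.90 ± 0.20, and Ect2 and Anln at -1.39 ± 0.16 and -1.53 ± 0.15. Without litter 1 the 10 members still fell (1568 of 13735 genes did), with a median of -1.52, and without the male of litter 3, 9 members were called lower (1124 of 14007 genes) and Aurkb missed the threshold (adjusted p = 0.0544).

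Litters 2 and 4 lay between. In litter 2, 3 of 10 members rose (3.3% of all genes were called higher): Racgap1 by 0.52 ± 0.11, Kif20a by 0.56 ± 0.10 and Iqgap3 by 0.58 ± 0.11 on the log2 scale. The other 7 had values of 0.30 (Ect2) to 0.62 (Kif23) and did not pass. These 3 calls depend on litter 3: without it 0 members were called (241 of 13899 genes were called higher) and the values of Racgap1, Kif20a and Iqgap3 were -0.074, -0.16 and -0.061. With either library of litter 2 left out, that litter is 1 library, assumed to vary like the others, and 0 of 10 members were called. Few genes of any kind were: 241 of 13861 without the male and 153 of 13956 without the female, against 575 of 13771 with both. The values were then 0.51 or 0.53 for Racgap1, 0.49 or 0.62 for Kif20a and 0.52 or 0.63 for Iqgap3 without the male or the female. Without the female of litter 3, 8 members were called higher (471 of 13981 genes), and without litter 1 all 10 were (939 of 13735 genes), with Racgap1, Kif20a and Iqgap3 at 1.07, 1.18 and 1.19. In litter 4, 0 of 10 members were called by edgeR (10.5% of all genes were called in either direction; 2 members were under an unadjusted p of 0.05, and DESeq2 called 0), with values from -0.41 ± 0.17 (Cit) to 0.10 ± 0.10 (Kif20a). Without litter 3, 9 members were called lower in litter 4 (1152 of 13899 genes), and without litter 1, 2 were called higher (448 of 13735 genes).

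**Figure D2:**
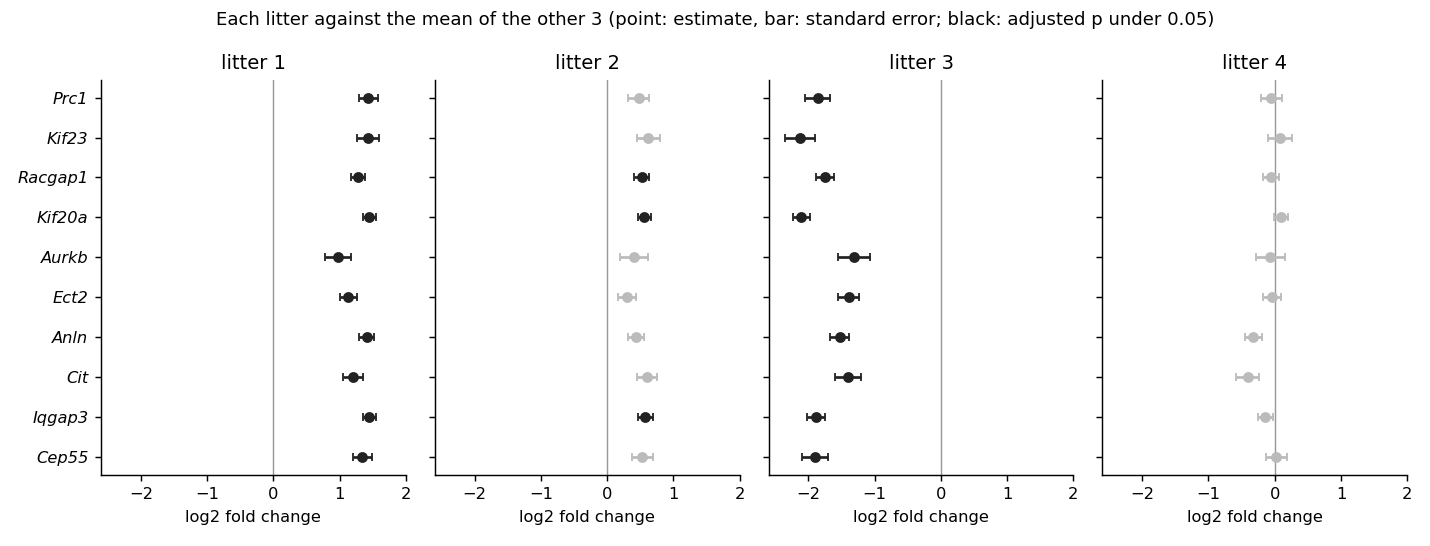
Log2 fold change of each member (rows) in 1 litter against the mean of the other 3 (horizontal axes), with the estimate as a point, its standard error as a bar, and black where the adjusted p was under 0.05. All 10 points are to the right of 0 in litter 1 (0.98 to 1.45) and to the left in litter 3 (-2.12 to -1.31); 3 are black in litter 2 and 0 in litter 4.

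Males and females were compared across the 4 litters. With edgeR, 0 of 10 members differed by sex (background: 0.0436% of genes, 6 genes), 0 members were under an unadjusted p of 0.05, and DESeq2 also called 0 of 10. Values for male minus female ran from -0.31 ± 0.46 (log2, SE; Cit) to 0.25 ± 0.51 (Cep55), so the standard errors were wider than the differences. That fit has no litter term, so the steps between litters are part of its spread. With litter as a block the count of genes called by sex went from 6 to 29 of 13771 (0.211%), and again 0 members were called. In the fit with the block, 1 member was under an unadjusted p of 0.05, as were 1592 of 13771 genes. The block narrowed the standard error of Cit to 0.14, with a value of -0.33 (unadjusted p = 0.0390, adjusted p = 0.415), and that of Kif20a to 0.09, with a value of 0.03.

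Within a litter there is 1 male and 1 female, so a sex difference in 1 litter has no test. In litter 1 the male was higher for 9 of 10 members, with a median of 0.28 (log2), and in litter 3 the female was higher for 10 of 10, with values from -1.08 (Kif23) to -0.34 (Cep55). The male was higher for 6 members in litter 2 and for 4 in litter 4. Over all genes the male was higher in 49.6% to 52.2% of genes in each litter. The median of the 28 mitotic genes was 0.29, 0.06, -0.53 and -0.02 in litters 1 to 4, beside 0.28, 0.08, -0.48 and -0.06 for the members. For the DNA replication genes the medians were 0.13, -0.32, -0.09 and 0.43.

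The members were set beside other genes of the central spindle, of abscission and of the cell cycle. Of 15 other genes of the central spindle and the passenger complex, 13 differed between litters; all 13 rose in litter 1 and fell in litter 3, with list medians of 1.25 and -1.69. The smallest adjusted p in this list belonged to Ckap2, a spindle protein (1.30 ± 0.10 in litter 1 and -1.85 ± 0.14 in litter 3), Arhgap11a, a GTPase-activating protein, and Cdca8, the borealin subunit of the passenger complex (1.44 ± 0.12 and -2.23 ± 0.17). Only Cdc14a and Cdc14b, phosphatases of late mitosis, did not pass. Of the 15, 9 had the members' order of litters without overlap.

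For abscission, few genes of the machinery that Cep55 recruits were called. Of 22 other abscission and ESCRT genes, 3 differed between litters (32.1% of all genes did): Ocrl, a phosphoinositide phosphatase, Chmp1b, an ESCRT-III subunit, and Vps4b, the ATPase that remodels ESCRT-III. All 3 rose in litter 3 (13.6% of all genes were called higher), by 0.32 ± 0.07, 0.37 ± 0.08 and 0.32 ± 0.07 on the log2 scale, a share of the 22 close to that background. The list median was -0.05 in litter 1 and 0.02 in litter 3, and 0 of 22 genes had the members' order of litters.

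**Figure D3:**
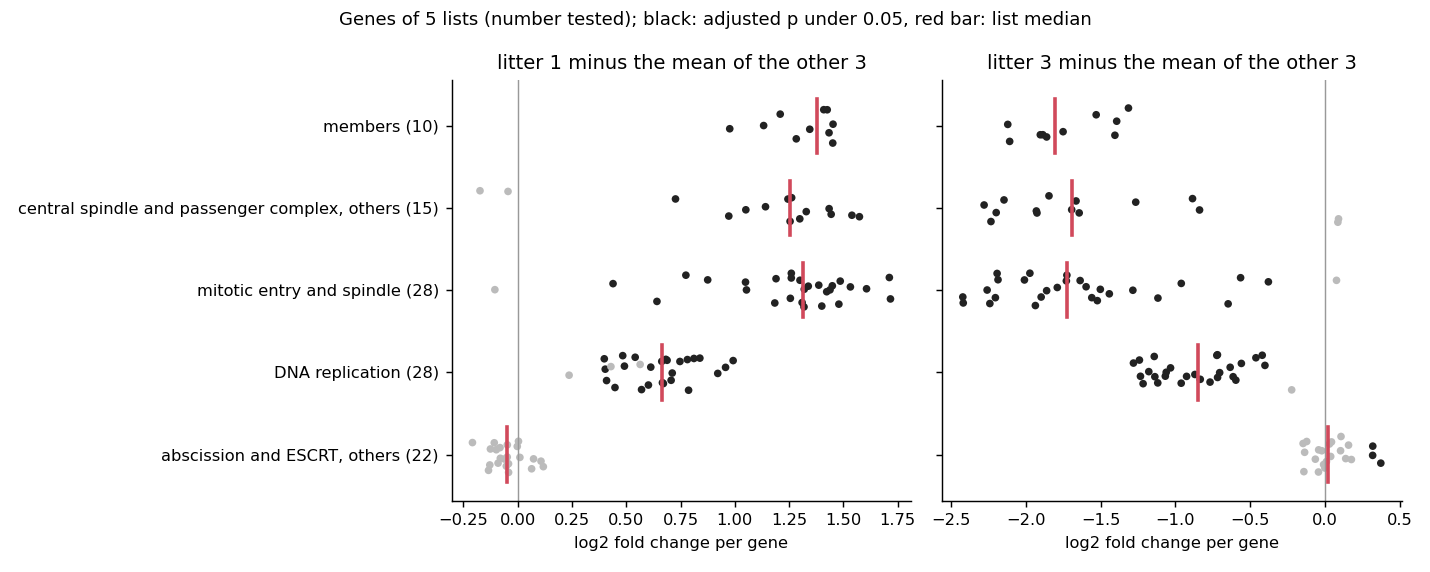
Log2 fold change per gene (horizontal axes) in litter 1 (left) and litter 3 (right) against the mean of the other 3 litters for the members and 4 lists, with the number tested in brackets, black points for adjusted p under 0.05 and a red bar at each list's median. The members, the other central spindle genes and the mitotic genes share medians of 1.25 to 1.38 and -1.81 to -1.69; the other abscission list sits near 0.

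Among 28 genes of mitotic entry and the spindle, 27 differed between litters, rose in litter 1 and fell in litter 3, with medians of 1.31 and -1.73; Cdc25b did not pass. Cenpe and Cenpf, kinetochore proteins, and Ccnb2, a mitotic cyclin, had the smallest adjusted p. Of 28 DNA replication genes, 25 differed, 25 rose in litter 1 and 27 fell in litter 3, with smaller medians of 0.66 and -0.85; Rrm2, Rrm1 and Pole led that list. Of 18 regulators of late cell cycle genes, 12 differed between litters. Foxm1, a transcription factor of late cell cycle genes, rose in litter 1 (adjusted p = 0.000185) and was at -1.72 ± 0.16 in litter 3, and Rbl1, the pocket protein p107, was at 0.86 ± 0.13 and -1.09 ± 0.16. Rbl2, the pocket protein p130 of the repressor complex DREAM, went the other way, at 0.65 ± 0.07 in litter 3. Of 15 genes linked to cardiomyocyte ploidy, 12 differed between litters, led by Gmnn, Ccnd1 and Lmnb2; 5 fell and 3 rose in litter 3.

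The members were also measured against the mitotic genes, as the mean log2 CPM of the 10 members minus that of the 28 mitotic genes in each library, with no test. The difference was -0.21 and -0.24 in the male and the female of litter 1, -0.23 in both libraries of litter 2, -0.34 and -0.32 in litter 4, and -0.45 and -0.32 in litter 3. Centred on their mean, litters 1 and 2 were at 0.07 and 0.06 and litters 3 and 4 at -0.09 and -0.04, with an SD of 0.05 within litters, small beside the falls of the members and of the mitotic genes in litter 3. Against the replication genes the members were at 0.19 and 0.04 in the male and the female of litter 1, 0.05 and -0.26 in litter 2, -0.72 and -0.27 in litter 4, and -1.28 and -0.76 in litter 3. The female of litter 3 was thus close to the male of litter 4. Set against the mitotic mean and centred on their own means over the libraries, single members went in both directions in litter 3. Kif23, Kif20a, Prc1, Iqgap3, Cep55 and Racgap1 were at -0.40, -0.38, -0.22, -0.21, -0.19 and -0.12. Aurkb, Ect2, Cit and Anln were at 0.24, 0.16, 0.15 and 0.05. The male of litter 3 set most of the value for Kif23 (-0.71, against -0.09 in the female), and the female that for Cit (0.30, against -0.01 in the male).

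**Figure D4:**
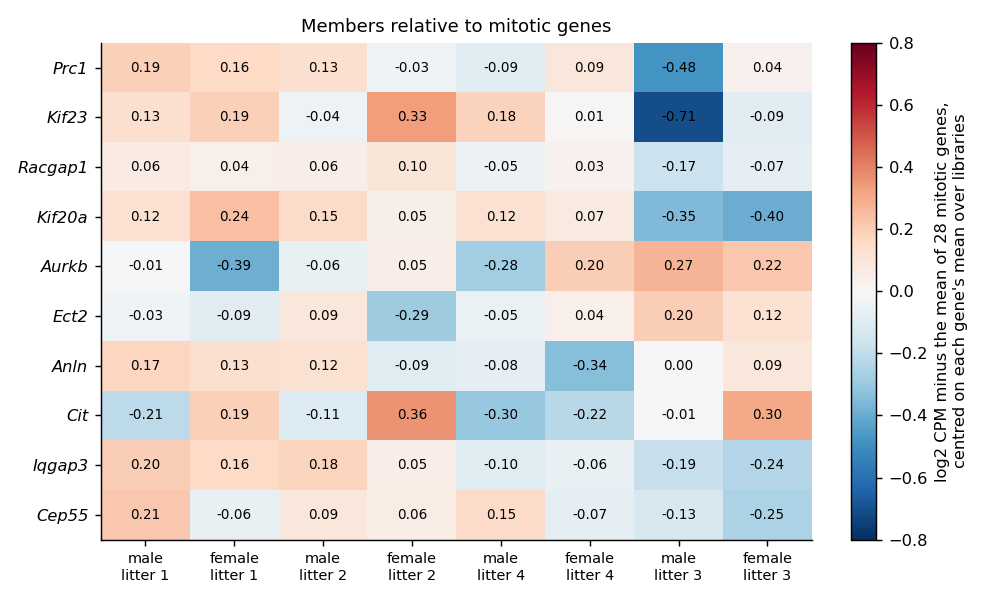
Log2 CPM of each member (rows) minus the mean of 28 mitotic genes, centred on the member's mean over the 8 libraries (columns), with the value printed in each cell and blue for below and red for above 0. Kif23 and Prc1 are lowest in the male of litter 3 (-0.71 and -0.48), while Aurkb is above 0 in both libraries of litter 3 (0.27 and 0.22).

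Across the 8 libraries the 45 pairs of members had Pearson r from 0.913 to 0.996, with a median of 0.975. With the mean of each litter removed, r was 0.137 to 0.963, with a median of 0.75. These are descriptions: the points share litters, library totals and scaling. The 10 other genes whose log2 CPM was most like the mean of the members were Ube2c, Ckap2l, Top2a, Ccna2, Cdca3, Ahnak, Mki67, Ska3, Nuf2 and Ccnb1, with r of 0.998 to 0.994. All but Ahnak are genes of the late cell cycle, and all but Ahnak and Ska3 were on the lists above. Ahnak, a very large scaffold protein, kept the same order of litters over a narrow span, from 383 CPM in litter 1 to 281 CPM in litter 3 (litter test, adjusted p = 0.00348).

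Markers of other cell types also differed between the libraries. Fibroblast markers summed to 173 and 114 CPM in the male and the female of litter 1, 251 and 156 in litter 2, 238 and 113 in litter 4, and 53.7 and 33.1 in litter 3. The mural markers were at 920 and 897 CPM in litter 3 and 1337 to 1515 elsewhere. Acta2, smooth muscle actin, was 343 to 1036 CPM of that sum, so the mural genes do not weigh equally in it. Pdgfrb and Rgs5, pericyte markers, were at 0.481 to 6.29 and 1.1 to 11.95 CPM, both lowest in litter 3 and highest in litter 2, where the list median was 1.03 (log2). Not every mural gene was low in litter 3: 5 of 8 were called lower, and 2 of 8 had log2 values above 0. Endothelial markers were at 21.1 and 80.1 CPM in the male and the female of litter 1, 111 and 183 in litter 2, 41.5 and 32.7 in litter 4, and 24.4 and 25.2 in litter 3. Cdh5, Pecam1 and Kdr, endothelial surface proteins, had the smallest adjusted p of that list and were at -1.42 ± 0.32, -1.46 ± 0.32 and -1.54 ± 0.40 in litter 3 on the log2 scale. The litter means of all 3 sums were lowest in litter 3, where the members were lowest, and none was highest in litter 1, where the members were highest.

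Erythroid markers summed to 98.5 to 531 CPM, highest in the male of litter 3, and epicardial markers to 14.8 to 23.8 CPM. Macrophage markers summed to 3.91 to 9.14 CPM, with Ptprc, Adgre1, C1qa, C1qb and Cd52 at 0 counts in at least 1 library. By the litter test, 8 of 10 cardiomyocyte, 9 of 10 fibroblast, 10 of 10 endothelial and 6 of 8 mural genes differed. So did 1 of 2 macrophage, 1 of 6 erythroid and 3 of 7 epicardial genes, against 32.1% of all genes. In litter 3, 8 fibroblast, 7 endothelial, 5 mural, 5 cardiomyocyte and 3 epicardial genes fell (14.8% of all genes were called lower). There 2 erythroid genes and 1 epicardial gene rose (13.6% of all genes were called higher). The part of non-muscle cells, or of the lower cardiomyocyte markers, in the members' values was not tested.

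**Figure D5:**
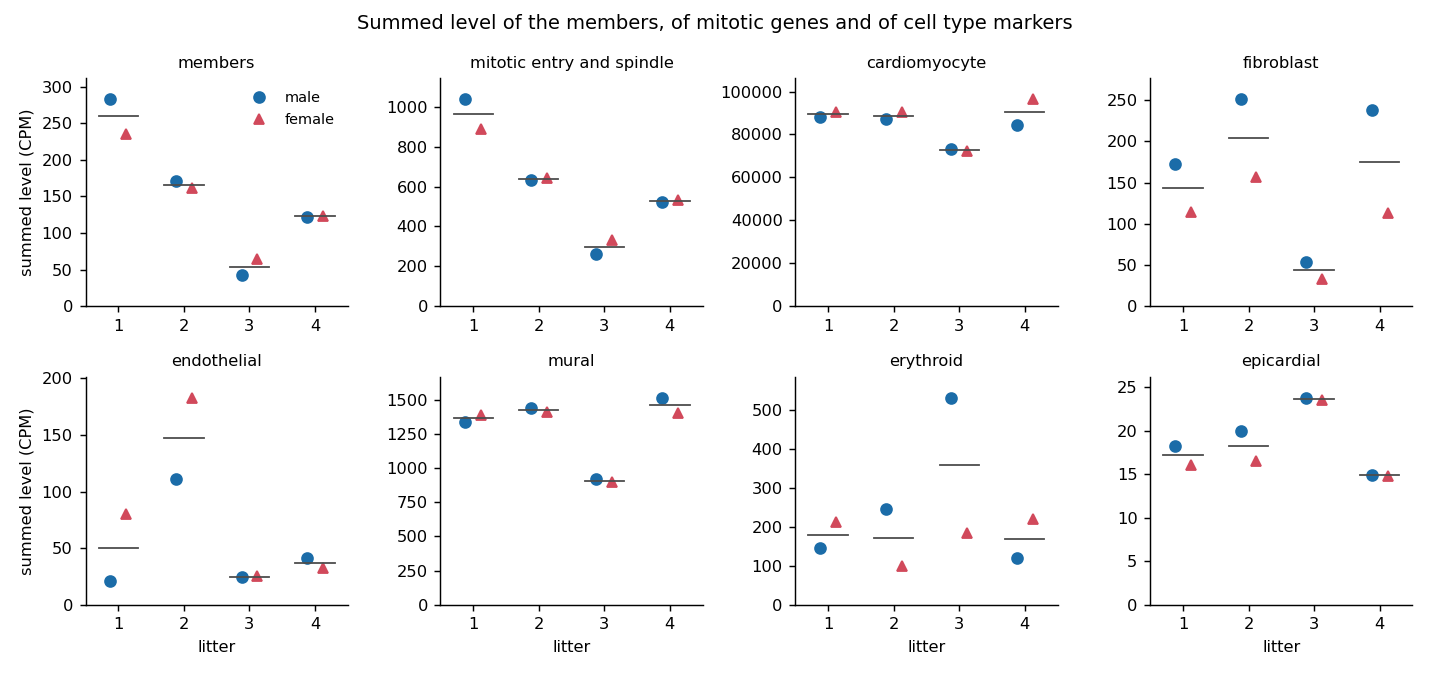
Summed CPM (vertical axes, from 0) of the members, the mitotic genes and the markers of 6 cell types by litter (horizontal axes), with males as circles, females as triangles and litter means as lines. The members and the mitotic genes step down from litter 1 to 2, 4 and 3; the fibroblast, mural and endothelial litter means are also lowest in litter 3, but not highest in litter 1.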

How the data were processed

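The deposited table holds raw gene counts by symbol, made by the authors from single-end reads of 100 bases; STAR 2.7.3a and the build mm10 are named, without their roles, per the submitters' processing notes. The counting program, annotation and strand setting are not given in the sources used here. The labels name polyA RNA, while the labels' protocols name a stranded total RNA kit. Counts were tested with edgeR 4.0.16 (limma 3.58.1, R 4.3.3): filterByExpr on sex, TMM scaling, quasi-likelihood F tests, Benjamini-Hochberg over 13771 genes, threshold 0.05. Sex was tested over all 8 libraries; litter was tested in a fit with sex as a term, which leaves 3 residual degrees of freedom. Log2 CPM used a prior count of 2. Alternatives were DESeq2 1.42.0, other scalings and filters, thinning to the smallest total, a litter block, and leaving out libraries or litters. The tests were checked on simulated data, in which the litter test made more false calls than its threshold allows. Litter numbers pair the libraries because the labels give each as a shared litter; deviations of brother and sister from the mean of their sex correlated across genes at 0.506, 0.503, 0.696 and 0.367 in litters 1 to 4.

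The members and the 14 gene lists were chosen with earlier results of these data known. One list, of other contractile ring genes, is not reported here. Named were all members, the 3 genes with the smallest adjusted p in the litter test from each list whose genes are described (fibroblast, cardiomyocyte, macrophage, erythroid and epicardial markers are otherwise given as sums and counts only), genes at the ends of a described range, the 10 genes most like the members, cell type markers at 0, and Xist and Ddx3y. Sequences are from RefSeq and positions from GENCODE release 21 for mouse, read with Python 3.11.15.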

Additional observations from a re-analysis of the deposited data

How the results depend on the processing

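The members' calls between litters, in litter 1 and in litter 3 were 10 or 9 of 10 under all alternatives run; Aurkb was the 1 member lost, in the 4 cases named in the report. In litter 2, 3 members were called higher (454 of 13771 genes), against 5 with library totals alone (529 of 13771), 8 without a filter on low counts (915 of 24853), 0 to 8 when 1 library was left out, 10 without litter 1 and 0 without litter 3, where Racgap1, Kif20a and Iqgap3 reversed to -0.074, -0.16 and -0.061. In litter 4, 0 were called, against 1 lower without a filter (1201 of 24853 genes), 0 to 1 when 1 library was left out, 2 without litter 1 and 9 without litter 3, where Kif20a reversed to -0.68. The alternatives that leave out a litter in a contrast of another litter were added after the data were seen. The male minus female value of Cep55 ranged from -0.24 to 0.56 with 1 library left out. The replicate block called 0 members and 29 genes by sex, against 6 without it, and changed no member's call. By the longest transcript, CPM per kilobase was 4.96 for Anln, 5.47 for Racgap1, 3.02 for Kif23, 7.52 for Prc1, 2.48 for Aurkb, 0.559 for Cit and 3.10 for Iqgap3. Where not shown by fewer libraries, the cause was not tested.

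Over all genes, litter calls were 4427 and 1899 without litter 3. Litter 1 calls were 1827, and 359 or 411 without its male or female, 2906 without litter 2 and 977 without litter 3. Litter 2 calls were 575, and 1249 without a filter, 350 with a mean of at least 50 counts, 241 or 153 without its male or female, 1407 without litter 1 and 271 without litter 3. Litter 3 calls were 3903, and 2235 or 1704 without its male or female. Litter 4 calls were 1447, and 322 or 433 without its male or female, and 772 or 740 without the male or female of litter 1. With library totals alone, 2419 genes were higher and 1698 lower in litter 3 (1871 and 2032 with TMM), and 262 and 1497 in litter 4 (648 and 799). Counts of 33 to 59 limit Cep55, Aurkb, Cit and Kif23 in litter 3.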
